A study of Mus musculus with 24 samples.

Results

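The 10 mouse genes analysed here encode receptors, and receptor partners, by which leukocytes read antibodies and self signals: Fcgr1, Fcgr2b, Fcgr3, Fcgr4, Fcer1g, Pirb, Lair1, Sirpa, Cd47 and Cd300a. The set is a list of names, drawn up with earlier results of these data known, and all 10 of the 10 symbols were found among the 14159 genes with a symbol in the deposited matrix. Bulk RNA of whole quadriceps muscle was sequenced in 24 libraries, 3 in each of 8 groups. The groups crossed a pair of inbred strains with 4 conditions. The strains were C57BL/6 (B6) and MRL/MpJ (MRL), an autoimmune-prone strain that lacks the Fas mutation of its MRL/lpr relative, and all mice were young adult females. In the injured groups a block of the quadriceps was cut out (volumetric muscle loss, VML), the gap was filled, and muscle was taken 21 days later. The filling was a saline vehicle, hydrated decellularized extracellular matrix (ECM) from pig small intestine, or polyethylene (PE) particles, and the remaining group of each strain was uninjured. Each group was thus injured muscle of a wild type inbred strain or its uninjured muscle, with no transgene, and the study asked how injury and materials act in these strains.

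Fc gamma receptors bind the constant part of IgG. Fcgr1, Fcgr3 and Fcgr4 are activating and signal through the common gamma chain encoded by Fcer1g, which carries an activation motif (ITAM), while Fcgr2b is the inhibitory Fc receptor and carries an inhibition motif (ITIM). Pirb binds MHC class I, Lair1 binds collagen and Cd300a binds phosphatidylserine, and each of these ITIM receptors restrains myeloid cells. Sirpa is the ITIM receptor on macrophages for Cd47, a surface protein of nearly all cells that acts as a "don't eat me" signal. In muscle these transcripts, except Cd47, are taken here as largely those of macrophages and other leukocytes, but bulk RNA does not show their source.

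Levels are log2 CPM as deposited, read counts scaled to the size of the library, so a step of 1 is a doubling. A count of 0 reads as -3.65, and 3 counts, taken here as the floor, as -2.33. Fold changes are on the log2 scale with their standard error (SE), from limma fitted over all 24 libraries and 14159 genes. A gene was called at a Benjamini-Hochberg adjusted p under 0.05. The study's methods call the 24 samples independent, while the labels only number the 3 libraries of a group, so p-values measure the spread between these libraries, which may be technical where they are not separate animals. Comparisons of levels are made within a gene, since the values are not per length.

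All 8 muscle fibre markers were found in every group, at a summed level between 26306 and 167417 CPM, as the tissue label says. The lowest correlation of a library with another of its group ranged from 0.812 to 0.967 and was lowest in the PE-treated MRL group, for its first and second libraries. In replicate 2 the mean of the 11 macrophage markers analysed was 6.52, against 3.55 and 3.54 in the other PE-treated MRL libraries and 5.48 to 6.95 in PE-treated B6 mice. Other markers differed in this library too. Muscle fibre markers summed to 26306 CPM, against 102743 and 98334 in replicates 1 and 3. Adipocyte markers summed to 189 CPM (against 2571 and 1509) and fibroblast markers to 5951 CPM (against 1280 and 933). The strain label of replicate 2 was checked with 114 genes that separated the other 23 libraries by strain with a gap of over 1. In 107 of them replicate 2 lay beyond every B6 library on the MRL side. The main results of comparisons that include the group of this library are given with and without it. The fit shares 1 estimate of the spread of a gene over all 8 groups, so this library also enters the SE of every other comparison. For Pirb the SD was 2.86 in PE-treated MRL mice and 0.06 in uninjured B6 muscle. In the main fit those other comparisons were not repeated without it, so their lack of calls rests on it too. Fits on the compared groups alone are given at the end.

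The genes lie in several clusters. On chromosome 1 of GRCm39, Fcgr2b (170786186 to 170804177), Fcgr4 (170846466 to 170857330), Fcgr3 (170878738 to 170893549) and Fcer1g (171057141 to 171062219) lie within 276 kb. Pirb (3714408 to 3723416) and Lair1 (3995928 to 4066269) lie on chromosome 7. Fcgr1 is on chromosome 3 (96190225 to 96201338), Sirpa on chromosome 2 (129434039 to 129474148), Cd47 on chromosome 16 (49620896 to 49735373) and Cd300a on chromosome 11 (114768840 to 114795480).

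The promoters are shown because the receptors moved together across libraries and because of Spi1, the gene of the myeloid factor PU.1. Outside the 10 genes, Spi1 was the gene closest in pattern to Fcer1g. Over the 10 genes its Pearson r ranged from 0.891 for Fcgr4 to 0.988 for Fcer1g. PU.1 and other Ets factors bind sites around the letters AGGAAG. RefSeq promoter entries (build GRCm38.p6) were found for 9 of the 10 genes. AGGAAG, searched on both strands and therefore also as CTTCCT, occurred within 250 bases before the start in 7 of these 9 and in 29.2% of the 27025 promoters of the table. It occurred within 60 bases before the start in 6 of 9, against 8.6% of the table. These 6 are printed first with the match in capitals, 120 bases each ending at the start, with the matches of Fcgr1 overlapping each other. Pirb follows with its match further upstream, and then Fcgr2b, in which no match was found in this window.
Fcer1g: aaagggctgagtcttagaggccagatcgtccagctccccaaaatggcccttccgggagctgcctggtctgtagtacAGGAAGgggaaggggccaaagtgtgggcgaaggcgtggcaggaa
Fcgr1: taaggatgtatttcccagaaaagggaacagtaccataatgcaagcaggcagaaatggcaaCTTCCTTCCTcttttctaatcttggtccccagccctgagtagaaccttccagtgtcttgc
Fcgr3: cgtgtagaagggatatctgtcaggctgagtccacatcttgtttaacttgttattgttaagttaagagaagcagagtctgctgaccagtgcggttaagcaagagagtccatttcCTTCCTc
Fcgr4: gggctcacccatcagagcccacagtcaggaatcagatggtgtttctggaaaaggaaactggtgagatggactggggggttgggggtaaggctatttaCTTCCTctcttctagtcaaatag
Lair1: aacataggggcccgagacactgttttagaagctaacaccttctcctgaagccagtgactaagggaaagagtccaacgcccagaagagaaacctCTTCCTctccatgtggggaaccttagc
Cd300a: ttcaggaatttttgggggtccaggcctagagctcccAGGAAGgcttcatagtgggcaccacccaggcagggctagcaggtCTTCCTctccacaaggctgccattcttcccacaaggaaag
Pirb: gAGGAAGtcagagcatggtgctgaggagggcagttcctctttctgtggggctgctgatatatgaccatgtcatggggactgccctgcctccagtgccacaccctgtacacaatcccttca
Fcgr2b: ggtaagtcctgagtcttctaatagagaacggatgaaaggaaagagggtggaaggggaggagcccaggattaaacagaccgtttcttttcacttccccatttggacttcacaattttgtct
They lie at chr1:171234350-171234469 (Fcer1g), chr3:96293970-96294089 (Fcgr1), chr1:171059404-171059523 (Fcgr3), chr7:4063205-4063324 (Lair1), chr7:3720383-3720502 (Pirb) and chr1:170976072-170976191 (Fcgr2b) on the minus strand, and at chr1:171018806-171018925 (Fcgr4) and chr11:114889921-114890040 (Cd300a) on the plus strand. The match began 44 bases before the start in Fcer1g, 23 in Fcgr4, 27 in Lair1, 40 in Cd300a and 7 in Fcgr3, and 119 in Pirb. A match of letters is a description of these windows and not a site of binding.

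All 10 receptor genes were higher in PE-treated than in uninjured muscle of B6 mice, with log2 fold changes from 1.46 for Cd47 to 5.09 for Lair1 and a median of 4.50. All 10 were called, against 14.7% of all genes called higher in that comparison, where the median of all genes was 0.02. In all 10 the PE-treated libraries lay above the uninjured ones, as in 27% of all genes. Against saline-treated muscle 8 of 10 were called higher in B6 mice, with 5.37% of all genes called higher. Neither saline nor ECM alone gave a called receptor in either strain. The calls in MRL mice turned on single libraries, as set out below. PE minus uninjured in MRL mice had a median of 2.31, beside 0.07 over all genes. All 10 were positive, 9 of them had an unadjusted p under 0.05 (limma), and 2 were called higher, as were 5.95% of all genes. Without replicate 2 of the PE-treated MRL mice the median was 0.79. All 10 stayed positive and 0 were called (0.00706% of all genes).

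**Figure D1:**
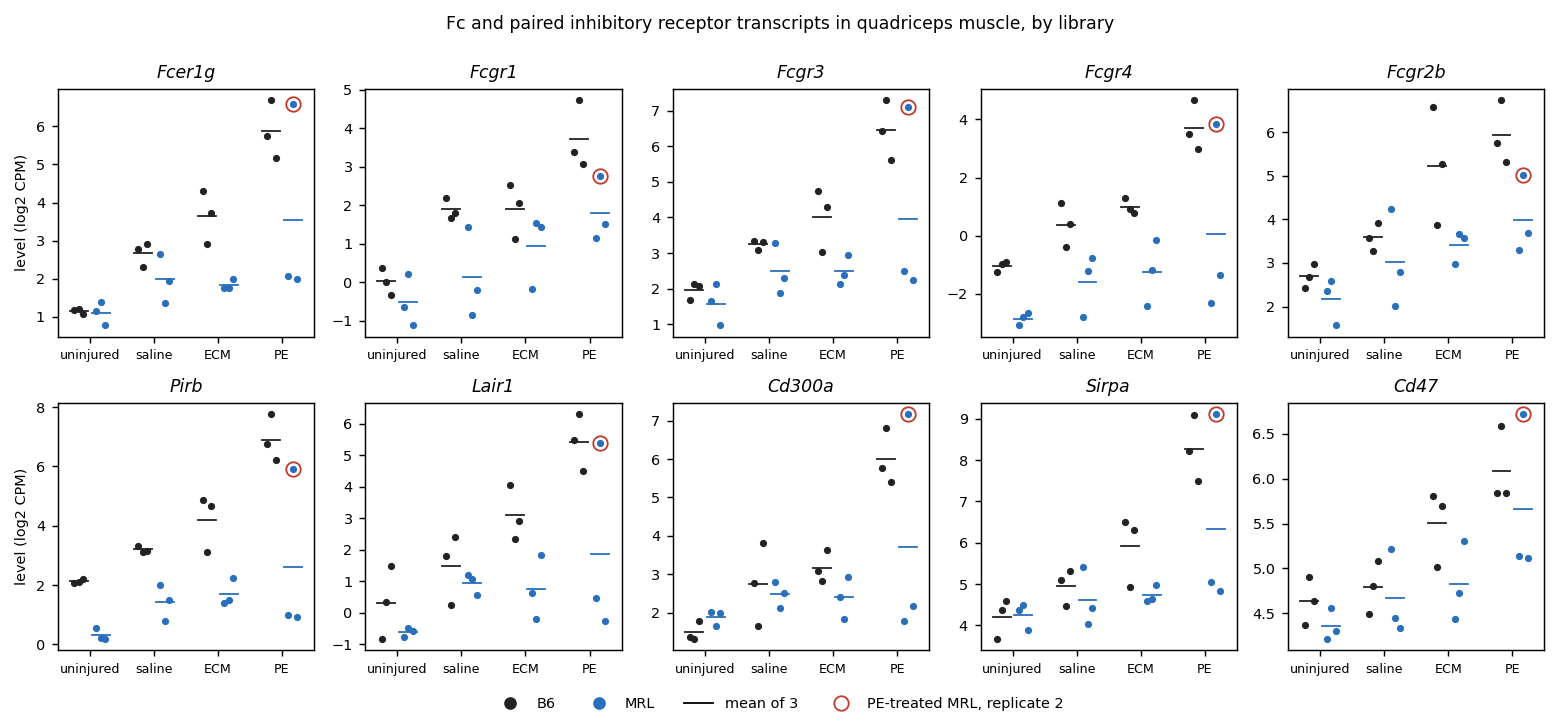
Level (log2 CPM) of each gene in each of the 24 libraries, by treatment, with B6 in black and MRL in blue, a bar for the mean of 3 libraries, and replicate 2 of PE-treated MRL mice ringed. In all 10 panels the PE-treated B6 libraries lie above the uninjured B6 libraries, and in the PE column the ringed library lies far above the other MRL libraries in most panels.

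Fcer1g, the gamma chain on which the activating Fc receptors depend for signalling and surface display, was 1.17, 1.22 and 1.08 in uninjured B6 muscle, 2.79, 2.32 and 2.90 after saline, 4.31, 2.92 and 3.73 after ECM and 5.75, 6.68 and 5.17 after PE. In MRL mice it was 1.16, 1.39 and 0.78 uninjured, 2.66, 1.37 and 1.95 after saline, 1.75, 1.75 and 2.00 after ECM, and 2.08, 6.58 and 1.99 after PE. The B6 levels stepped up from uninjured through saline and ECM to PE without overlap between neighbouring conditions, a separation that 8.59% of all genes had for saline over uninjured and 4.53% for ECM over saline. The MRL levels after ECM and after PE, apart from replicate 2, stayed within the range of the saline libraries. PE raised Fcer1g in B6 mice by 4.71 ± 0.78 (SE) over uninjured muscle (limma, adjusted p = 0.0018) and by 3.20 ± 0.78 over saline (adjusted p = 0.0273).

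Fcgr3, the low-affinity activating receptor for IgG and immune complexes, also stood highest after PE in B6 mice. It was 1.67, 2.12 and 2.07 in uninjured B6 muscle and 6.44, 7.29 and 5.61 after PE. MRL libraries stood at 1.64, 2.12 and 0.97 uninjured and 2.50, 7.11 and 2.25 after PE. The PE effect in B6 mice was 4.49 ± 0.85 over uninjured muscle (adjusted p = 0.00299) and 3.19 ± 0.85 over saline (adjusted p = 0.0356). Over the 24 libraries the genes closest to Fcgr3 were Ptprc, the pan-leukocyte phosphatase CD45 (Pearson r = 0.990, and 0.982 after subtraction of group means), Selplg and Laptm5.

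Fcgr4, an activating receptor for IgG2 subclasses on monocytes, macrophages and neutrophils, stood at -0.16 or lower in every MRL library except replicate 2 after PE. It was -1.25, -0.98 and -0.91 in uninjured B6 muscle, 1.11, -0.40 and 0.40 after saline, 1.28, 0.92 and 0.77 after ECM and 3.49, 4.66 and 2.99 after PE. Levels in the MRL strain were -3.09, -2.80 and -2.68 uninjured, -2.80, -1.22 and -0.78 after saline, -2.42, -1.20 and -0.16 after ECM and -2.32, 3.85 and -1.36 after PE. All 3 uninjured MRL libraries lay under the floor of 3 counts, and MRL lay below B6 without overlap in the uninjured, saline and ECM groups, as did 9.61%, 7.72% and 12.8% of all genes. PE raised Fcgr4 in B6 mice by 4.76 ± 1.04 over uninjured muscle (adjusted p = 0.00621), and the difference from saline, 3.34 ± 1.04, did not pass (adjusted p = 0.0624).

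Fcgr1, the high-affinity IgG receptor, was 0.02 ± 0.35 (SD, n = 3) in uninjured B6 muscle and 1.89 ± 0.27 after saline, 1.91 ± 0.71 after ECM and 3.73 ± 0.87 after PE. In MRL mice it was -0.51 ± 0.68 uninjured, 0.13 ± 1.18 after saline, 0.93 ± 0.96 after ECM and 1.80 ± 0.85 after PE. The 3 saline libraries of B6 mice lay above the 3 uninjured ones, yet the difference of 1.88 ± 0.61 was not called (adjusted p = 0.303). Fcgr1 and Cd47 were the only receptor genes called higher in PE-treated than in uninjured MRL mice, where 5.95% of all genes were called higher. For Fcgr1 the difference was 2.31 ± 0.61 (adjusted p = 0.0448), and without replicate 2 of the PE-treated MRL mice it was 1.84 and no receptor was called (adjusted p = 0.194 for Fcgr1, 0.00706% of all genes called).

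Fcgr2b, the inhibitory Fc receptor, reached levels after ECM that overlapped those after PE in B6 mice. It was 2.43, 2.67 and 2.98 in uninjured B6 muscle, 3.58, 3.28 and 3.91 after saline, 6.57, 3.87 and 5.26 after ECM and 5.76, 6.73 and 5.31 after PE. MRL libraries stood at 2.36, 2.59 and 1.57 uninjured, 4.24, 2.02 and 2.79 after saline, 2.98, 3.66 and 3.58 after ECM and 3.30, 5.01 and 3.68 after PE. Fcgr2b was the only one of the 10 genes with this overlap, which came from ECM replicate 1 (6.57), the other ECM libraries lying below every PE library. For the remaining 9 every PE-treated B6 library lay above every ECM-treated one, as did 19.5% of all genes. PE minus ECM was 0.70 ± 0.60 for Fcgr2b in B6 mice (adjusted p = 0.516; 1.37 and not called without ECM replicate 1) and between 1.82 and 2.72 for Fcgr1, Fcer1g, Fcgr3 and Fcgr4. None of the 10 was called there by limma, where 0.198% of all genes were called higher and 8 of the 10 had an unadjusted p under 0.05. ECM minus uninjured in B6 mice was 2.54 ± 0.60 for Fcgr2b (adjusted p = 0.0649), the smallest adjusted p of the 10 genes in that comparison, in which 0 of the 10 were called with 8 at an unadjusted p under 0.05, and 0.198% of all genes were called higher.

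The difference of Fcer1g, and of Fcgr3, from the inhibitory Fcgr2b was therefore taken within each library, a quantity chosen after the values were seen and given without a test. As the values are not per length, its change between libraries can be read and not its size. The difference Fcer1g minus Fcgr2b (log2) was -0.01, -0.04 and -0.15 in PE-treated B6 mice. It was -2.26, -0.96 and -1.53 after ECM, -0.79, -0.96 and -1.01 after saline and -1.26, -1.45 and -1.89 in uninjured B6 muscle. The PE-treated B6 libraries lay above the other 9 B6 libraries, and their SD of 0.07 was the smallest of the 8 groups. In MRL mice the difference was -1.21 and -1.69 in replicates 1 and 3 after PE, within the range of the other MRL groups (-1.91 to -0.64), and 1.56 in replicate 2, above every other library. Fcgr3 minus Fcgr2b was 0.67, 0.57 and 0.30 in PE-treated B6 mice and no higher than -0.19 in the other B6 groups. Fcgr1 and Fcgr4 were not set against Fcgr2b in this way. The fold change of PE over saline in B6 mice was lower for Fcgr1 (1.84) than for Fcgr2b (2.34), and was 3.34 for Fcgr4. Over uninjured muscle (3.71 against 3.24) and over ECM (1.82 against 0.70) that of Fcgr1 was higher than that of Fcgr2b. Fcgr2b and Fcgr3 share part of their sequence: of the stretches of 31 bases in annotated Fcgr3 transcripts, 7.36% also occur in Fcgr2b, so part of their reads could be assigned to either gene.

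**Figure D2:**
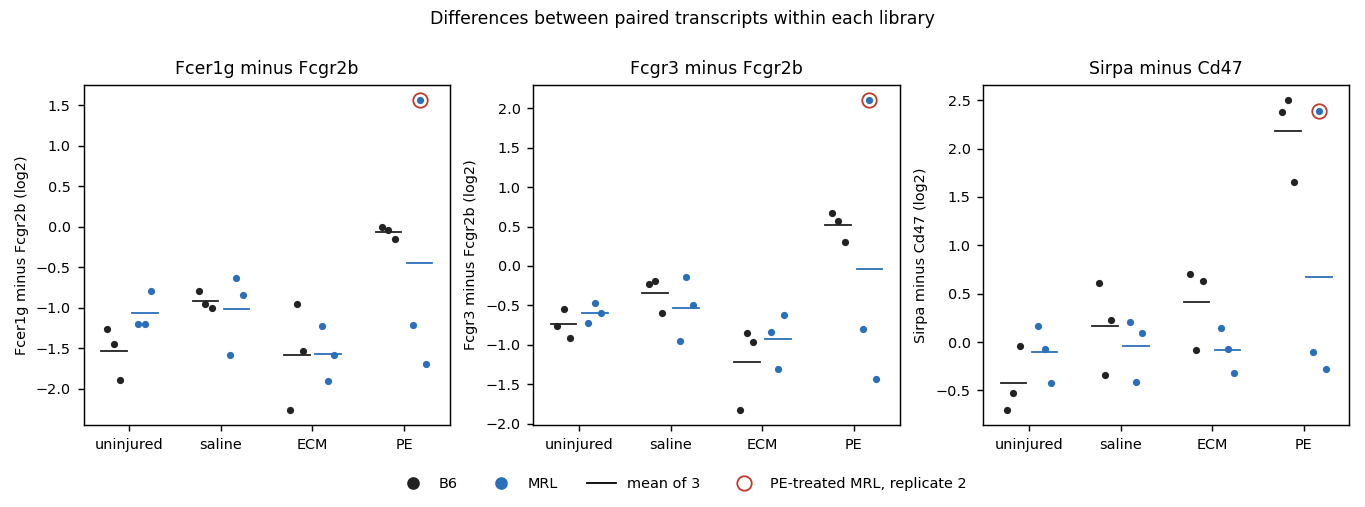
Difference between pairs of transcripts within each library (log2), by treatment, with B6 in black, MRL in blue, a bar for the mean of 3 libraries and replicate 2 of PE-treated MRL mice ringed. The PE-treated B6 libraries sit at -0.15 to -0.01 for Fcer1g minus Fcgr2b and at 1.65 to 2.50 for Sirpa minus Cd47, above all other B6 libraries, while replicates 1 and 3 of PE-treated MRL mice stay with the other MRL groups.

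Pirb, the inhibitory receptor for MHC class I on myeloid and B cells, had the largest strain difference of the 10 genes as the mean over the conditions. It was 2.08, 2.10 and 2.20 in uninjured B6 muscle, 3.33, 3.13 and 3.14 after saline, 4.86, 3.11 and 4.65 after ECM and 6.74, 7.76 and 6.20 after PE. Levels in the MRL strain were 0.55, 0.22 and 0.18 uninjured, 2.00, 0.78 and 1.50 after saline, 1.41, 1.49 and 2.24 after ECM and 0.99, 5.91 and 0.93 after PE. In each of the 4 conditions every MRL library lay below every B6 library, and Pirb was the only one of the 10 genes for which this held. This separation was found in 1.37% of all genes in all 4 conditions together, and in 7.59% after PE. MRL minus B6 was -4.29 ± 0.86 after PE (limma, adjusted p = 0.00605), the only call among the 10 genes there, with 1.74% of all genes called lower. Without replicate 2 it was -5.94 (adjusted p = 5.78e-08), and without replicate 1 or 3 of the PE-treated MRL mice Pirb was at -3.48 (adjusted p = 0.0554) and -3.45 (adjusted p = 0.0515), and no receptor was called (1.65% and 1.89% of all genes called). As the mean over the 4 conditions it was -2.59 ± 0.43 (adjusted p = 0.000268). The differences were -1.81 ± 0.86 in uninjured muscle (adjusted p = 0.446), -1.77 ± 0.86 after saline (adjusted p = 0.385) and -2.49 ± 0.86 after ECM (adjusted p = 0.167), none of them called.

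Pirb belongs to a family of close copies, and 43.75% of the 31-base stretches of its annotated transcripts occur in other genes, 26.62% in Pira12, 25.87% in the activating partner Pira2 and 20.6% in Pira13. Of these 3 only Pira2 is in the matrix, so a sum of Pirb and Pira2 leaves out the copy that shares the most. Its value is therefore uncertain where reads could be split. Pira2 was -0.69, -3.65 and -0.27 in uninjured B6 muscle and 0.92, 0.89 and 0.66 in uninjured MRL muscle, so the copies ran in opposite directions between strains there. After PE Pira2 was 5.14, 5.98 and 4.66 in B6 mice and 2.21, 6.93 and 1.84 in MRL mice. The log2 of the summed CPM of Pirb and Pira2 differed between strains by -0.69 in uninjured muscle, -0.80 after saline and -1.82 after ECM, against -1.81, -1.77 and -2.49 for Pirb alone, and the MRL libraries still lay below the B6 libraries in these 3 conditions. After PE the summed level was 2.73, 7.51 and 2.45 in MRL mice and 7.15, 8.13 and 6.63 in B6 mice, and the groups overlapped through replicate 2. How reads of MRL alleles were shared between these copies was not tested.

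Lair1, the inhibitory collagen receptor, had the largest fold change of the 10 genes after PE in B6 mice. It was -0.83, 0.34 and 1.48 in uninjured B6 muscle, 1.81, 0.24 and 2.42 after saline, 4.04, 2.33 and 2.92 after ECM and 5.47, 6.30 and 4.49 after PE. In MRL mice it was -0.75, -0.48 and -0.58 uninjured, 1.20, 1.06 and 0.57 after saline, 0.63, -0.20 and 1.84 after ECM and 0.46, 5.39 and -0.27 after PE. After ECM all MRL libraries lay below all B6 libraries, as for 6 of the 10 genes and 12.8% of all genes. The strain difference after ECM, -2.34 ± 1.03, was not called (limma, adjusted p = 0.327). The saline libraries of the strains overlapped. PE raised it in B6 mice by 5.09 ± 1.03 over uninjured muscle (adjusted p = 0.00397) and by 3.93 ± 1.03 over saline (adjusted p = 0.0334). Lair1 shares 5.0% of its 31-base stretches with other genes.

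Cd300a, the inhibitory receptor for phosphatidylserine on dying cells, was 1.49 ± 0.25 (SD, n = 3) in uninjured B6 muscle, 2.74 ± 1.08 after saline, 3.17 ± 0.40 after ECM and 6.00 ± 0.73 after PE. MRL libraries stood at 1.88 ± 0.19 uninjured, 2.49 ± 0.34 after saline and 2.40 ± 0.55 after ECM, and its PE-treated libraries stood at 1.78, 7.17 and 2.16. Cd300a in replicate 2 was the highest value of this gene in any library, above the 6.82 of the highest B6 library. PE minus saline in B6 mice was 3.26 ± 0.90 (adjusted p = 0.0403).

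Sirpa, the macrophage receptor for Cd47, was 3.67, 4.37 and 4.60 in uninjured B6 muscle, 5.09, 4.46 and 5.31 after saline, 6.51, 4.93 and 6.32 after ECM and 8.22, 9.09 and 7.49 after PE. Levels in the MRL strain were 4.38, 4.49 and 3.88 uninjured, 5.42, 4.04 and 4.42 after saline, 4.58, 4.65 and 4.98 after ECM and 5.04, 9.11 and 4.84 after PE. Uninjured levels overlapped between the strains. PE raised Sirpa in B6 mice by 3.31 ± 0.76 over saline (adjusted p = 0.0244). Its closest genes were Ctsz (cathepsin Z, r = 0.990), Arhgap30 (r = 0.986) and the lysosomal macrophage marker Cd68 (r = 0.986).

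Cd47, the ligand, had the smallest fold change after PE in B6 mice. It was 4.64 ± 0.27 (SD, n = 3) in uninjured B6 muscle, 4.79 ± 0.29 after saline, 5.50 ± 0.43 after ECM and 6.09 ± 0.43 after PE. In MRL mice it was 4.36 ± 0.18, 4.66 ± 0.48, 4.82 ± 0.44 and 5.66 ± 0.91 in the same order. PE minus uninjured was called in B6 mice (1.46 ± 0.37, adjusted p = 0.0112) and in MRL mice (1.30 ± 0.37, adjusted p = 0.0463), the latter at 0.77 and not called without replicate 2 (adjusted p = 0.217). The difference Sirpa minus Cd47 within a library was higher after PE in B6 mice, at 2.38, 2.50 and 1.65 against -0.70 to 0.70 in the other 9 B6 libraries. It was -0.10 and -0.28 in replicates 1 and 3 of PE-treated MRL mice and 2.39 in replicate 2.

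**Figure D3:**
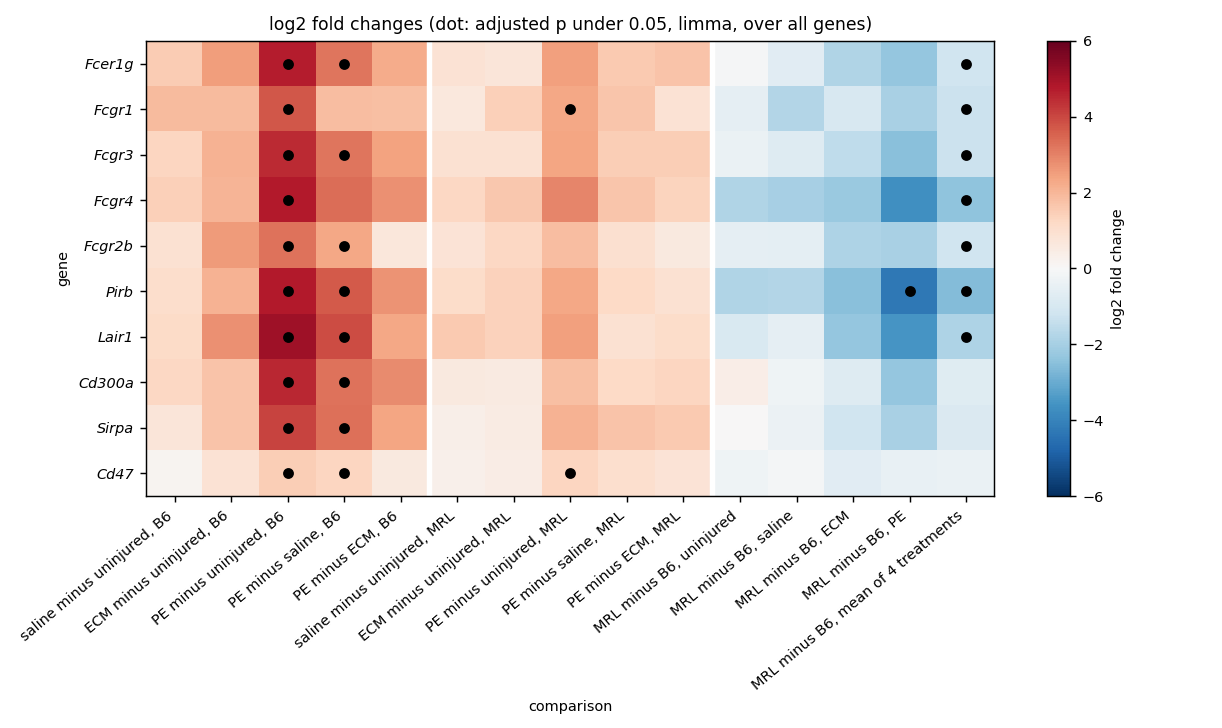
log2 fold change of the 10 genes (rows) in 15 comparisons (columns: 5 between treatments in B6, 5 between treatments in MRL, 5 between strains), red for higher and blue for lower, with a dot where the limma adjusted p over all genes was under 0.05. The dots fill the column for PE minus uninjured in B6, and in the column of the mean strain difference they mark 7 genes, all lower in MRL.

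After saline the log2 fold change over uninjured muscle was positive for all 10 genes in both strains, with a median of 1.21 in B6 mice and 0.86 in MRL mice. No receptor and no other gene was called by limma in either strain (0% of all genes), with 1 of the 10 in B6 mice and 0 in MRL mice at an unadjusted p under 0.05. ECM minus saline gave no called receptor in B6 mice (median 0.87, 0.0283% of all genes called, 1 of 10 at an unadjusted p under 0.05) or in MRL mice (median 0.13, 0.00706% of all genes called, 0 of 10). ECM minus uninjured in MRL mice gave none either (median 1.07, 0.0141% of all genes called, 1 of 10 at an unadjusted p under 0.05). PE minus saline and PE minus ECM in MRL mice had medians of 1.34 and 1.20, 0% of all genes called and 3 and 2 of the 10 at an unadjusted p under 0.05. Without replicate 2 of the PE-treated MRL mice these medians were -0.04 and -0.02, with 5 of the 10 genes positive in each. Over both strains together PE minus saline was called higher for all 10 (median 2.35, 15% of all genes called higher). PE minus ECM was called higher for 7 (median 1.87, 14.7% of all genes called higher), not for Fcgr2b, Fcgr4 or Lair1. Without replicate 2 of the PE-treated MRL mice the medians over both strains were 1.54 and 1.09, with 10 and 5 of the 10 called higher (9.45% and 9.32% of all genes). These comparisons share their control libraries. The ECM comparison over both strains lost every call without replicate 2 of either the ECM-treated or the PE-treated B6 mice, and kept 3 without replicate 1 or 2 of the ECM-treated MRL mice. The 8 calls of PE over saline in B6 mice fell to 0 without replicate 1 or 2 of the PE-treated mice or without any saline replicate, when at most 126 genes were called in all.

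Between the strains, MRL mice had lower levels of 7 of the 10 genes as the mean over the 4 conditions, against 7.87% of all genes called lower. The called genes were Fcgr1 (-1.30 ± 0.31), Fcgr2b (-1.21 ± 0.30), Fcgr3 (-1.29 ± 0.42), Fcgr4 (-2.42 ± 0.52), Fcer1g (-1.21 ± 0.39), Pirb and Lair1 (-1.85 ± 0.51), and leaving out any single library gave between 5 and 10 calls, with 10 without replicate 2 of the PE-treated MRL mice (17.7% of all genes called lower). The calls of Fcer1g and Fcgr3 ended on log2(CPM + 1) values (adjusted p = 0.0516 and 0.0532) and with quantile normalization (adjusted p = 0.0553 and 0.06). Sirpa (-0.85 ± 0.38, adjusted p = 0.133), Cd300a (-0.73 ± 0.45, adjusted p = 0.27) and Cd47 (-0.38 ± 0.18, adjusted p = 0.162) were not called. Within single conditions the median over the 10 genes was -0.45 uninjured, -0.62 after saline, -1.68 after ECM and -2.31 after PE (-3.93 without replicate 2), beside -0.02 to 0.01 over all genes. No receptor was called in the first 3 of these by limma (2.6%, 2.51% and 2.66% of all genes called), with 1, 1 and 5 of the 10 at an unadjusted p under 0.05. Reads of both strains were assigned to the same mouse transcriptome, and the part of MRL alleles in the strain differences of the 10 genes was not tested.

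After PE the strain difference depended on 1 library. With all libraries Pirb alone was called, and 9 of the 10 had an unadjusted p under 0.05. Without replicate 2 of the PE-treated MRL mice all 10 were called lower in MRL, with 14.1% of all genes called lower, and the differences ran from -0.96 for Cd47 to -5.94 for Pirb. The test of whether PE over saline acted differently in the strains called none of the 10 and none of all genes (0%), with 0 of the 10 at an unadjusted p under 0.05 and a median difference of -1.66. Without that library the median was -3.23 and 7 of the 10 were called (3.74% of all genes called lower), namely Fcgr3, Fcgr4, Fcer1g, Pirb, Lair1, Sirpa and Cd300a. For PE over ECM the same test called none with all libraries (0% of all genes, 0 of the 10 at an unadjusted p under 0.05), and Pirb and Cd300a without replicate 2 (1.43% of all genes called lower). For saline over uninjured and ECM over saline it also called none, with 0 of 10 at an unadjusted p under 0.05.

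**Figure D4:**
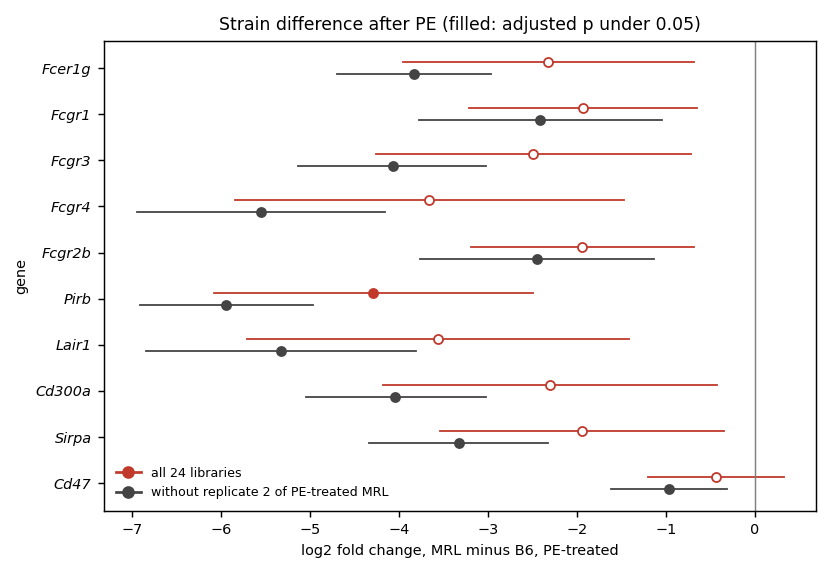
log2 fold change between PE-treated MRL and B6 mice for each gene with its 95% interval, in red with all 24 libraries and in black without replicate 2 of the PE-treated MRL mice, with a filled point where the adjusted p was under 0.05. Only Pirb is filled in red, and all 10 are filled in black.

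The receptors moved with the markers of macrophages. Of the 11 macrophage markers analysed, 9 were called higher in PE-treated than in uninjured B6 muscle, beside 14.7% of all genes. The summed level of the 11 ran from 149 to 202 CPM in uninjured B6 libraries to 1505 to 5431 CPM after PE. In MRL mice the sum ran from 91.9 to 188 CPM uninjured and 244 to 4647 CPM after PE, the highest value being replicate 2, and no macrophage marker was at 0 in a whole group. Markers of neutrophils rose too, 5 of 6 in the same B6 comparison, among them S100a9 (5.49 ± 1.03), as did the NK markers Klrd1 and Nkg7, 2 of 3. None of the 2 B cell markers analysed was called, and 1 of 6 T cell markers was (Cd4, 2.95 ± 0.39). In the other direction all 6 red cell markers were called lower after PE in B6 mice, and 1 of 8 muscle fibre markers, beside 10% of all genes. Some endothelial, mast cell and adipocyte markers were called lower there too, while another mast cell marker and some fibroblast markers were called higher. In bulk tissue fewer cells of a type and less RNA per cell cannot be told apart. The part of these markers in the receptor changes between treatments was not tested, and a fit with the macrophage markers was made for the strain comparisons only.

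A further fit, chosen after seeing the data, took the mean of the 11 macrophage markers as a covariate in the strain comparisons. The marker mean had an SD of 1.72 in PE-treated MRL mice and at most 0.74 in any other group, so replicate 2 weighs heavily in the adjustment. Without it the PE-treated strains shared no marker level (3.55 and 3.54 in MRL, 5.48 to 6.95 in B6), and the adjusted PE difference is an extrapolation. The fit therefore cannot decide which receptors differ beyond macrophage content. Pirb then differed by -1.42 ± 0.19 as the mean over the conditions (limma, adjusted p = 2.6e-05), by -1.44 ± 0.31 uninjured (adjusted p = 0.0102), by -1.20 ± 0.31 after saline (adjusted p = 0.0395) and by -2.04 ± 0.37 after PE (adjusted p = 0.00236). After ECM the difference was -0.99 ± 0.34 and not called (adjusted p = 0.151). It was the only one of the 10 called in the mean comparison, where 12.4% of all genes were called, beside 3.67% uninjured, 3.43% after saline, 2.85% after ECM and 4.92% after PE. Fcgr4 was -1.40 ± 0.47 (adjusted p = 0.0616) and Fcgr1 was -0.62 ± 0.24 (adjusted p = 0.105). The other activating receptors lay near 0, at -0.12 ± 0.15 for Fcer1g and -0.09 for Fcgr3, and Sirpa, Cd47 and Cd300a turned to 0.21, 0.07 and 0.33, none of them called. Without replicate 2 the same fit called Pirb (-1.98 ± 0.20), Fcgr4 (-2.77 ± 0.52) and Fcer1g (-0.61 ± 0.14) in the mean comparison, with 4.9% of all genes called. Pirb minus the macrophage marker mean within a library ran from -0.82 to 0.81 in B6 mice and from -2.91 to -0.61 in MRL mice, and 11 of 12 MRL libraries lay below the lowest B6 library, the exception being replicate 2 after PE. For Fcgr4 it was 8 of 12, and for Fcer1g 0 of 12.

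**Figure D5:**
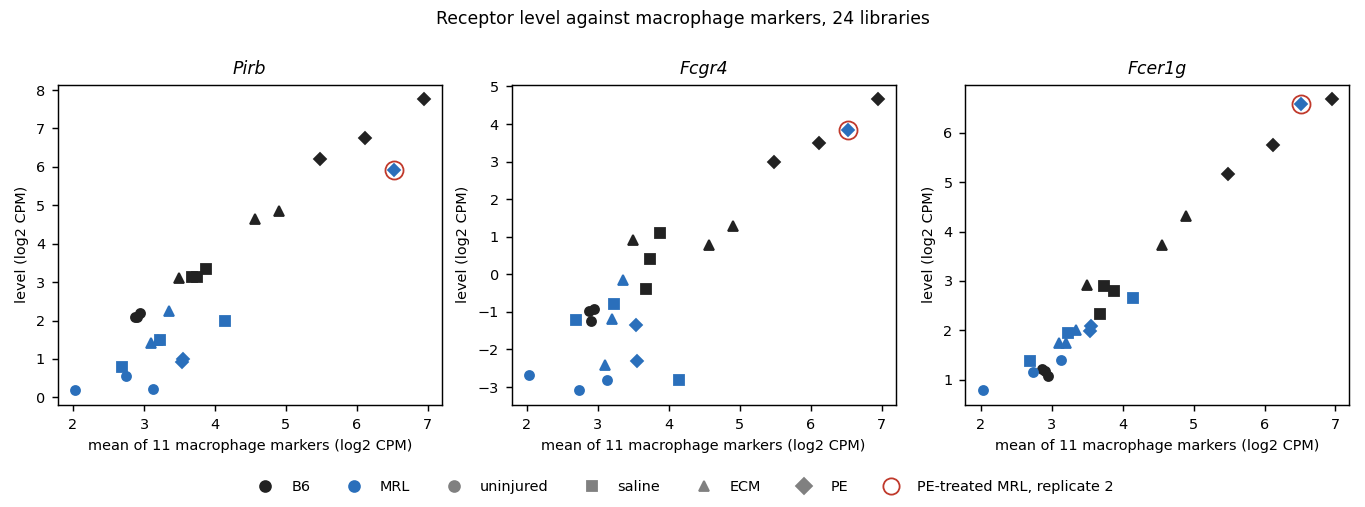
Level of Pirb, Fcgr4 and Fcer1g (log2 CPM) against the mean of 11 macrophage markers (log2 CPM) in the 24 libraries, with B6 in black, MRL in blue, symbols for treatments and replicate 2 of PE-treated MRL mice ringed. For Pirb minus the marker mean 11 of 12 MRL libraries lie below the lowest B6 library, and for Fcer1g 0 of 12 do.

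Over the 24 libraries the 45 pairs of the 10 genes had Pearson correlations between 0.773 and 0.992 (median 0.899). After subtraction of the group means they were between 0.379 and 0.984 (median 0.806), which describes libraries of a group varying together and shares the depth and composition of each library. Among genes outside the 10, to which the next matches are limited, those nearest in pattern differed between the receptors. Fcgr1 and Fcgr2b lay nearest to genes of complement component C1q (C1qb, r = 0.963, and C1qc, r = 0.969), whereas Fcer1g lay nearest to Spi1 (r = 0.988) and Cd53, and Pirb to Csf2rb2 (r = 0.976), a chain of the IL-3 receptor. Lair1 lay nearest to Cd52 (r = 0.969), Fcgr4 to Atp6v0c (r = 0.948), Cd300a to Sh3bgrl3 (r = 0.983) and Cd47 to E2f1 (r = 0.965). In replicate 2 of PE-treated MRL mice Fcgr2b (5.01), Fcgr1 (2.75) and Pirb (5.91) lay below all 3 PE-treated B6 libraries, as did C1qb (6.00 against 6.98, 7.87 and 6.19), while Fcer1g (6.58), Fcgr3 (7.11), Fcgr4 (3.85) and Lair1 (5.39) lay within their range.

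Among the signalling partners of these receptors, 23 of 26 genes were called higher and 1 lower in PE-treated than in uninjured B6 muscle. Of all genes, 14.7% were called higher and 10% lower there. Over saline 12 of the 26 were called higher, beside 5.37% of all genes. Syk, the kinase recruited by ITAMs, rose by 3.77 ± 0.78 (adjusted p = 0.00445), and Ptpn6, the phosphatase SHP-1 recruited by ITIMs, rose by 3.49 ± 0.82 (adjusted p = 0.00872). Inpp5d, the phosphatase SHIP1 through which Fcgr2b acts, rose by 2.02 ± 0.60 (adjusted p = 0.0234). Tyrobp, the adaptor DAP12, which was counted with the other paired receptors, was 2.64 ± 1.15 and not called there (adjusted p = 0.0938), and it was lower in MRL mice as the mean over conditions (-1.99 ± 0.58, adjusted p = 0.0244). The kinase Fgr (4.92 ± 1.02) and the adaptor Dok3, which was at 0 in 2 of the 3 uninjured B6 libraries, were also called higher. As the mean over conditions, 3 of the 26 were called lower in MRL mice and 1 higher, beside 7.87% and 7.37% of all genes. The 3 were Fyb (-1.44 ± 0.40), Ptpn6 (-1.23 ± 0.41, limma, adjusted p = 0.0492) and Dok2 (-1.13 ± 0.38).

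Of 29 other paired receptors analysed, 22 were called higher and 2 lower in PE-treated than in uninjured B6 muscle, beside 14.7% and 10% of all genes. They were led by Trem2 (7.72 ± 1.28), a lipid receptor of macrophages. Between PE-treated strains 3 were called lower in MRL mice, beside 1.74% of all genes, and none was higher. They were the Pirb relative Lilra6, which lay under the floor in all 3 MRL libraries and at 0.74, 2.26 and 0.59 in B6 mice, Trem1, which was at 0 in 2 of the 3 MRL libraries, and Cd300ld (-4.07 ± 1.04). None of 5 other Fc receptors analysed, among them the recycling receptor Fcgrt, was called in the B6 comparison of PE with uninjured muscle. Of 20 genes for ligands, 10 were called higher there, including the immunoglobulin heavy chain Igha, which lay under the floor in all 3 uninjured libraries and at 1.66, 1.66 and 0.53 after PE. The MHC class I genes H2-D1 (-3.22 ± 0.21) and H2-K1 (-1.97 ± 0.22), whose products are ligands of Pirb, were lower in MRL mice as the mean over conditions. Of the 20, 4 were called lower there, beside 7.87% of all genes. The MHC class I genes have strain alleles, and the part of allele differences in the read assignment was not tested. Among mast cell markers, 4 of 7 were called higher in MRL mice and 1 lower as the mean over conditions, beside 7.37% and 7.87% of all genes. Tpsab1 (3.71 ± 0.35) was among those called higher. Tpsb2 was at 0 in every B6 library.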

How the data were processed

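Libraries were poly(A)-selected with an ERCC spike-in. The authors pseudo-aligned the reads with kallisto to an Ensembl mouse transcriptome, summed estimated counts to genes with tximport (length-scaled), kept genes above 1 CPM in at least 3 libraries, scaled them by TMM in edgeR and deposited log2 CPM values with edgeR's default prior count, which is 2. The values are normalized logs, so no count model was used. The builds named in the submitters' processing notes are GRCm39 and mm39. From the value of a 0 count, the mean effective library size was 25149678 reads, so that 3 counts are 0.119 CPM. The depth of single libraries was not known. One row without a symbol was left out, 14159 genes were tested, and 0 columns were left unmapped.

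Groups came from the sample labels. All 24 libraries entered limma 3.58.1 in R 4.3.3 with 1 coefficient per group, a variance trend and Benjamini-Hochberg adjustment within each comparison, 2-sided. Tables and plots were made in Python 3.11.15. The procedure was tested on simulated data in which a gene had the same spread in every group. That test does not cover the wider spread of the PE-treated MRL group. The members, gene lists and comparisons were chosen with earlier results of these data known. All 10 members are named, as are Tyrobp, Syk, Ptpn6 and Inpp5d, and cell type markers. So are up to 3 called genes with the largest change per list and comparison, and the 3 genes outside the 10 with the highest Pearson r to each member. A gene that this rule names is not reported here. Pira2 in the strain comparisons, Fcgrt, C1qb in single libraries and the ratios within libraries were chosen after their values were seen. Positions come from GENCODE (GRCm39), and shared sequence was counted over GENCODE transcripts.

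Replicate numbers were checked for pairing by correlating deviations from group means. All 3 pairs exceeded 0.1 only between PE-treated MRL and B6 mice (0.105, 0.532 and 0.439), where the fit with a replicate block also called 1 member, Pirb (adjusted p = 0.011). Alternatives were log2(CPM + 1), a filter on mean log2 CPM of at least 1, quantile normalization, library weights, a replicate block, the compared groups alone, leaving out each library and, added after seeing the data, a macrophage marker covariate.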

Additional observations from a re-analysis of the deposited data

How the results depend on the processing

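Each count is the number of the 10 genes called. The comparisons not named in the next sentences kept a count within 1.5 times under the settings named there. With log2(CPM + 1) the count for MRL minus B6 after PE was 4, and with quantile normalization it was 3. For PE minus uninjured in MRL mice it was 4 among genes averaging at least 1 log2 CPM, 0 with quantile normalization and 0 with a replicate block, which changed no other count by over 1.5 times but also ended the calls of Fcer1g (adjusted p = 0.0505) and Fcgr3 (adjusted p = 0.0534) in the mean strain difference, Cd300a for PE minus saline in B6 mice (adjusted p = 0.0513) and Cd47 for PE minus ECM over both strains (adjusted p = 0.056). With the compared groups alone the counts were 1 for MRL minus B6 uninjured, 2 for ECM and 0 for PE, 5 for ECM minus uninjured in B6 mice, 2 for PE minus ECM in B6 mice, 0 for PE minus uninjured in MRL mice, and 0 for PE minus saline and 0 for PE minus ECM over both strains, with fewer libraries in each fit. Library weights gave 2, 5, 8 and 10 for MRL minus B6 uninjured and after saline, ECM and PE. They gave 8, 10, 3 and 8 for saline minus uninjured, ECM minus uninjured, ECM minus saline and PE minus ECM in B6 mice, 2 for PE minus saline in MRL mice, 7 and 2 for saline minus uninjured and ECM minus saline over both strains, and 8 and 7 for the tests of a strain difference in PE minus saline and PE minus ECM. Those weights ran from 0.057 for replicate 2 of PE-treated MRL mice to 56.3 for replicate 1 of PE-treated B6 mice. With the macrophage covariate, chosen after seeing the data, the counts were 1 uninjured, 1 after saline and 1 for the mean over conditions, and without replicate 2 of PE-treated MRL mice 1, 1, 2 after ECM, 3 after PE and 3. Under it Cd300a (0.33), Sirpa (0.21) and Cd47 (0.07) turned positive in the mean over conditions and Cd47 (0.43) and Sirpa (0.10) after PE, and without that library Cd47 (0.05) and Fcgr2b (0.16) in the mean and Cd47 (0.38), Fcgr1 (0.92) and Fcgr2b (1.12) after PE, none of them called. This check covered 72 pairs of a gene and a comparison, and among these no other turned in sign under any setting. Outside these pairs some did. After ECM the strain difference of Cd300a was -0.78 in the main fit and 0.59 with the covariate. PE minus saline in MRL mice was 1.18 for Pirb in the main fit and -0.47 without replicate 2 of the PE-treated MRL mice.

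Leaving out 1 library at a time gave 0 to 10 for MRL minus B6 after PE, 5 to 10 for the mean over conditions, 0 to 1 after saline and 0 to 1 after ECM. It gave 9 to 10, 0 to 8 and 0 to 1 for PE minus uninjured, PE minus saline and ECM minus uninjured in B6 mice. In MRL mice it gave 0 to 9 for PE minus uninjured, with 9 without replicate 1 or 3 and 0 without replicate 2 of the PE-treated mice, or without replicate 1 or 3 of the uninjured mice, and 0 to 1 for PE minus saline and PE minus ECM. Over both strains it gave 7 to 10 for PE minus saline and 0 to 9 for PE minus ECM, and 0 to 7 and 0 to 2 for the strain tests of PE minus saline and PE minus ECM, with 0 throughout elsewhere. Each comparison was refitted only without libraries of its own groups. Counts of comparisons without the PE-treated MRL group were therefore not checked against leaving out its replicate 2. The single calls came on leaving out MRL saline replicate 1 (MRL minus B6 after saline, PE minus saline), B6 ECM replicate 2 (MRL minus B6 after ECM, ECM minus uninjured in B6 mice) and MRL PE replicate 3 (PE minus ECM). The cause of these changes was not tested. With 3 libraries per group, levels under 0.119 CPM rest on fewer than 3 counts, which limits Fcgr4 in MRL mice.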
